A study of Mus musculus with 19 samples.

Results

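The 50 genes described here act in mitosis and in the G2/M phase of the cell cycle, the step at which a cell divides. They were chosen by symbol, for their part in cell division, with earlier results of these data known. The list is thus not independent of these data. All 50 were found among the 38887 genes of the deposited count table. All 50 also passed the filter on low counts, which left 12943 genes to test. The libraries come from myeloid-derived suppressor cells (MDSC) of the mouse spleen, myeloid cells known for restraining T cell responses. PMN-MDSC are their neutrophil-like form, with CD11b and Ly6G and intermediate Ly6C on the surface. M-MDSC are their monocyte-like form, with CD11b and high Ly6C but without Ly6G.

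The 4 groups were newborn PMN-MDSC (5 libraries), adult PMN-MDSC (6 libraries), newborn M-MDSC (5 libraries) and adult M-MDSC (3 libraries). Newborns were taken at 7 days of age and adults at 6 to 8 weeks, and the labels name no genotype, transgene or treatment in any group. The sources used here give neither strain nor sex, and do not say whether animals were pooled. The labels describe both a bead isolation and a cell sort by those surface proteins. The comparison of ages asks how these cells differ in newborns.

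Entry into mitosis is driven by the kinase Cdk1 bound to cyclins of the A and B types. Aurora and Polo kinases, condensins, kinetochores and spindle motors then build the spindle and attach chromosomes to it, and the anaphase-promoting complex ends the phase by marking securin and the cyclins for destruction. Most of these genes are transcribed late in the cell cycle, under the MuvB complex with B-Myb and FoxM1, through promoter elements known as CHR and CCAAT. Mature neutrophils and most blood monocytes do not divide, whereas their precursors do, and the spleen of a newborn mouse is a site of blood formation.

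Libraries came in 2 batches, and each group had both. Total counts were 827744 to 2965896 in batch 1 and 14026193 to 45135933 in batch 2. Levels are given as CPM, which sets each count against its TMM-scaled library size, and a count of 0 in 1 library allows up to 3 counts, which was 0.0601 to 3.29 CPM. These limits cover counting error only. Adult M-MDSC replicate 28 stood apart: 17.1% of the tested genes were at 0 in it, and 12 of the 50 mitosis genes, although it held 16896783 counts. Newborn M-MDSC replicate 77 had 15.7% of the tested genes at 0 but none of the 50, and the other 17 libraries had 0.595% to 8.64% at 0. Some PMN-MDSC libraries of batch 1 had a near match in batch 2: gene deviations correlated at 0.354 to 0.620 in 5 of 15 possible pairs and at -0.448 to 0.159 elsewhere. The adult matches were 0.561 to 0.620 and the newborn ones 0.354 and 0.404. Newborn PMN-MDSC had 2 libraries in batch 1, whose deviations mirror each other (0.354 and -0.354 with replicate 37). A positive value with either is thus fixed in advance, and the newborn matches say less. Whether the matched libraries are the same RNA sequenced in both batches is not stated. If they are, each PMN-MDSC group holds 3 distinct samples and its batches are not independent of each other. Whether each replicate is another animal is not stated, and the p-values therefore cover no more than library-to-library spread, which may be technical. Kdm5d, on the Y chromosome, was counted in each of the 10 newborn libraries and in 0 of the 9 adult ones, so age and the mix of sexes cannot be told apart. Defining neutrophil markers (8 genes) summed on average to 43931 CPM in newborn and 8681 CPM in adult PMN-MDSC, and to 3335 CPM in newborn and 484 CPM in adult M-MDSC. Defining monocyte markers (8 genes) summed on average to 4512 CPM in newborn and 5405 CPM in adult M-MDSC, and to 1099 CPM in newborn and 1228 CPM in adult PMN-MDSC. No marker of either list was at 0 in a whole group.

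The RefSeq promoter windows of 6 of the genes are shown because these genes cover the range of the changes between newborns and adults. Ccnb2, Cdk1 and Cdc20 were among the genes with large newborn increases, while the log2 fold change in PMN-MDSC was 0.67 for Kif23, 1.04 for Hmmr and -1.16 for Pttg1. This choice was made after their values were seen. Each sequence runs 5′ to 3′ on the gene's own strand, from 250 bases before the start of transcription to 30 bases after it, and comes from RefSeq on GRCm38.p6. Capitals mark CHR matches (TTTGAA or TTCGAA) and CCAAT matches, on either strand. The window of Ccnb2, which encodes cyclin B2, is chr9:70421525-70421804 on the minus strand. The window of Cdk1, the mitotic kinase itself, is chr10:69352883-69353162 on the minus strand. The window of Cdc20, the activator of the anaphase-promoting complex, is chr4:118437314-118437593 on the minus strand. The window of Kif23, a motor of the central spindle, is chr9:61946770-61947049 on the minus strand. The window of Hmmr, a microtubule-binding protein of the spindle, is chr11:40733408-40733687 on the minus strand. The window of Pttg1, which encodes securin, is chr11:43425952-43426231 on the minus strand.
Ccnb2: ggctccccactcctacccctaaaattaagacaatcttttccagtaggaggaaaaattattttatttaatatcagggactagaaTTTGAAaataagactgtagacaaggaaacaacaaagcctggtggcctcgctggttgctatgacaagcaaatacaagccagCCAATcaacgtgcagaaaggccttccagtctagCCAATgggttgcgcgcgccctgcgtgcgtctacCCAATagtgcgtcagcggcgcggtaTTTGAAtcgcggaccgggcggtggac
Cdk1: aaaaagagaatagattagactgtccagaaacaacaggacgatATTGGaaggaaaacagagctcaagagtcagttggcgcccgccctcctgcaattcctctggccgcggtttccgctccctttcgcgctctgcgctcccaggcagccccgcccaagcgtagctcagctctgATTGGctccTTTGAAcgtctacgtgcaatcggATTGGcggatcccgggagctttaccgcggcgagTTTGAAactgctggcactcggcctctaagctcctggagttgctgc
Cdc20: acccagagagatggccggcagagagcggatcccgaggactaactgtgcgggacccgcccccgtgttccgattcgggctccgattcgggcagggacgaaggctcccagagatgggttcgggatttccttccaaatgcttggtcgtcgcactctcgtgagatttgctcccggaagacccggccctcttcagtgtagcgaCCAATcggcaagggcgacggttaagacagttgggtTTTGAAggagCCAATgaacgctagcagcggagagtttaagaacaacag
Kif23: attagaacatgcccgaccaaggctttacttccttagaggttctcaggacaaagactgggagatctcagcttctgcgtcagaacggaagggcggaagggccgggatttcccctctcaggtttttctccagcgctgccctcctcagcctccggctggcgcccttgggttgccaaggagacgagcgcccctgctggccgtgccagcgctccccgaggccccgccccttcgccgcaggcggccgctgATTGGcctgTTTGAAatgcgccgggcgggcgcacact
Hmmr: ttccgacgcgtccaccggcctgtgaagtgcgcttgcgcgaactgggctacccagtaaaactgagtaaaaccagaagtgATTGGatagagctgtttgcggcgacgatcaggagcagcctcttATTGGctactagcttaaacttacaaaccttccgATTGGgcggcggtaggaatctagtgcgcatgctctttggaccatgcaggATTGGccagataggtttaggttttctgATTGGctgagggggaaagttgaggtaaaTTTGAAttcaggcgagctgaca
Pttg1: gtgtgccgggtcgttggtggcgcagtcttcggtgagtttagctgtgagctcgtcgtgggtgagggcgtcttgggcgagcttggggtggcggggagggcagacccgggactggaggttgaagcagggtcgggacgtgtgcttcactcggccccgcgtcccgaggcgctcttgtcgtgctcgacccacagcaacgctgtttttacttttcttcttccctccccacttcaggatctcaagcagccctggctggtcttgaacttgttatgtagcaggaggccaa

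The window of Ccnb2 held 2 CHR and 3 CCAAT matches, that of Cdk1 held 2 and 3, and that of Cdc20 held 1 and 2. Kif23 had 1 of each, Hmmr had 1 CHR and 5 CCAAT matches, and Pttg1 had neither, which says only that these letters are not in its window. The Pttg1 window lies wholly inside the gene as GENCODE places it (chr11:43420250-43426251, minus strand). It therefore holds no base before the GENCODE start, and a promoter there was not examined. The windows of Cdca3 and Cdca8 also lie wholly inside their genes, and they are counted below with 3 and 4 CCAAT matches. RefSeq promoters were found for 42 of the 50 genes, as 44 windows of 280 bases, and none was found for Stmn1, Kif20a, Ccna2, Smc4, Cdc25c, Aurkb, Dlgap5 and Tpx2. A CHR match was present in 29 of the 44 windows (65.9%), against 18.4% of the 32851 mouse windows in the table. A CCAAT match was present in 36 of the 44 windows (81.8%), against 36.1% of all windows, and both motifs in 27 (61.4%), against 6.9%. Words of the E2F type (TTTCCCGC, TTTGGCGC, TTTCGCGC and TTTGCCGC, either strand) were present in 2 windows, those of Cdk1 and Ncapd2 (4.5%), against 2.1%. Ect2 and Prc1 have 2 overlapping windows each; counted once on the genome there were 34 CHR matches, of which 21 lay within 30 bases of a start. In the windows, 1 pair of matches to different motifs overlapped. The genes with neither CHR nor CCAAT were Birc5, Ndc80, Nuf2, Nusap1, Pttg1 and Tacc3. Of these 6, all but Pttg1 were higher in newborn PMN-MDSC, by a log2 fold change of 2.25 (Ndc80) to 3.47 (Nuf2). The matches are a description of letters and are not sites shown to be bound.

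In PMN-MDSC, 47 of the 50 mitosis genes were higher in newborns and none lower. Among all tested genes, 27.1% were called higher and 20.5% lower in the same test. The median log2 fold change, newborn over adult, was 3.10 over the 50 genes and -0.05 over all genes tested. Calls are from edgeR's quasi-likelihood test with Benjamini-Hochberg adjustment over all genes tested (adjusted p under 0.05); at an unadjusted p under 0.05, 47 were higher and 1 lower, and DESeq2 called 46 higher and 1 lower. All newborn libraries lay above all adult libraries for 47 genes, against 28.4% of tested genes. The reverse held for 1 gene, Pttg1, against 23.0% of tested genes. The 3 genes without a call were Smc4, Hmmr and Pttg1. Scaling bore on all genes here: the median of all genes was -0.22 with DESeq2's size factors in edgeR and -0.29 with upper-quartile scaling. The calls over all genes were then 2982 higher and 3304 lower, and 2756 higher and 3552 lower, against 3514 higher and 2657 lower with TMM. Of the 50 mitosis genes, 44 were called higher and 1 lower under each of these scalings. In bulk samples, a larger share of dividing cells and more of these RNAs per cell cannot be told apart.

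Summed over the 50 genes, the level was 4389.9, 4961, 4887, 5257 and 5658 CPM in newborn PMN-MDSC replicates 2, 3, 37, 38 and 39. In adult PMN-MDSC it ran between 672 and 997 CPM with a median of 729 CPM. The groups were far apart: the means were 5031 ± 469 CPM in newborn PMN-MDSC and 794 ± 137 CPM in adult PMN-MDSC (SD, n = 5 and 6), a ratio of 6.33. Within batch 1 the ratio was 6.07, and within batch 2 it was 6.43. Without the batch 1 PMN-MDSC libraries, which leaves 3 in each PMN-MDSC group, 42 of the 50 genes were higher in newborns and 0 lower; Smc2, Cks2, Bub1, Cenpe and Kif23 lost their call.

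**Figure D1:**
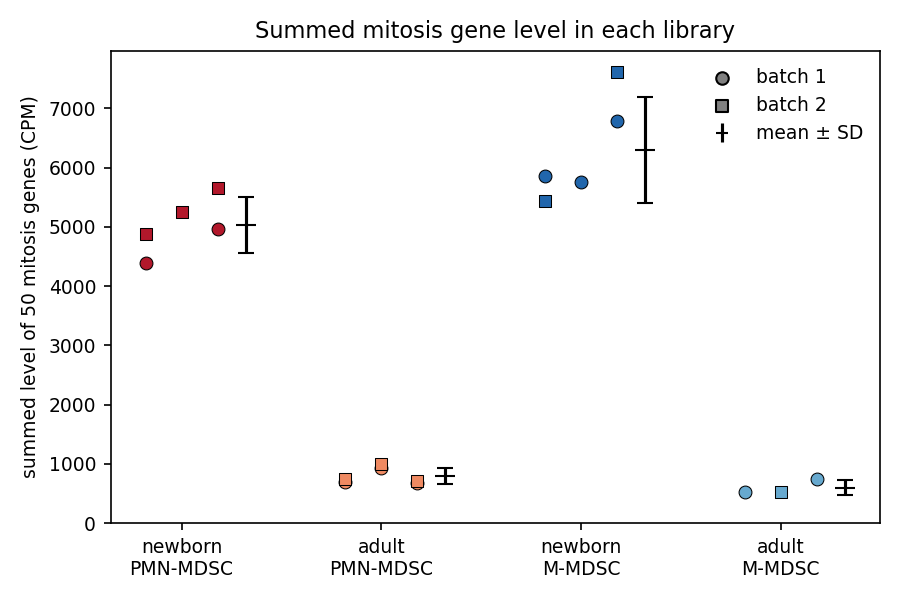
Summed level of the 50 mitosis genes (CPM, linear axis from 0) in each library, with circles for batch 1, squares for batch 2 and a bar for the mean ± SD of each group. Newborn PMN-MDSC lie between 4389.9 and 5658 CPM and adult PMN-MDSC between 672 and 997 CPM; newborn M-MDSC lie between 5431 and 7614 CPM and adult M-MDSC between 518 and 743 CPM.

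In M-MDSC, 48 of the 50 genes were higher in newborns and none lower, in a comparison where 15.9% of all tested genes were called higher and 14.3% lower, 30.2% in either direction (edgeR). The median log2 fold change was 3.49 over the 50 genes, also with the 3 genes without adult counts set at their lower bound, and 0.01 over all genes tested. At an unadjusted p under 0.05, 49 genes were higher and 0 lower, and DESeq2 called 48 higher and 0 lower. The exceptions were Ttk, a checkpoint kinase, and Pttg1. The newborn libraries lay above the adult ones for 45 genes, against 12.8% of tested genes. The summed level was 5857, 5761, 6781, 5431 and 7614 CPM in newborn M-MDSC replicates 1, 2, 3, 77 and 79, against 518, 743 and 530.4 CPM in adult M-MDSC replicates 1, 3 and 28. The groups did not overlap, and their means of 6289 ± 894 CPM in newborns (n = 5) and 597 ± 126 CPM in adults (SD, n = 3) gave a ratio of 10.5. The ratio was 9.73 within batch 1 and 12.3 within batch 2, where a single adult library stands. Without adult M-MDSC replicate 28, 47 genes were higher and 0 lower, with a median of 3.39. Single values rested on few adult libraries: leaving out 1 library moved the fold change of 25 of the 50 genes by more than 1.5 times in M-MDSC, 23 of them on leaving out adult replicate 28, against 0 of the 50 in PMN-MDSC. For Cdk1 the log2 fold change without replicate 28 was 5.71, for Ccnb1 4.27, for Mki67 2.52, for Aurkb 4.46 and for Plk1 4.56.

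**Figure D2:**
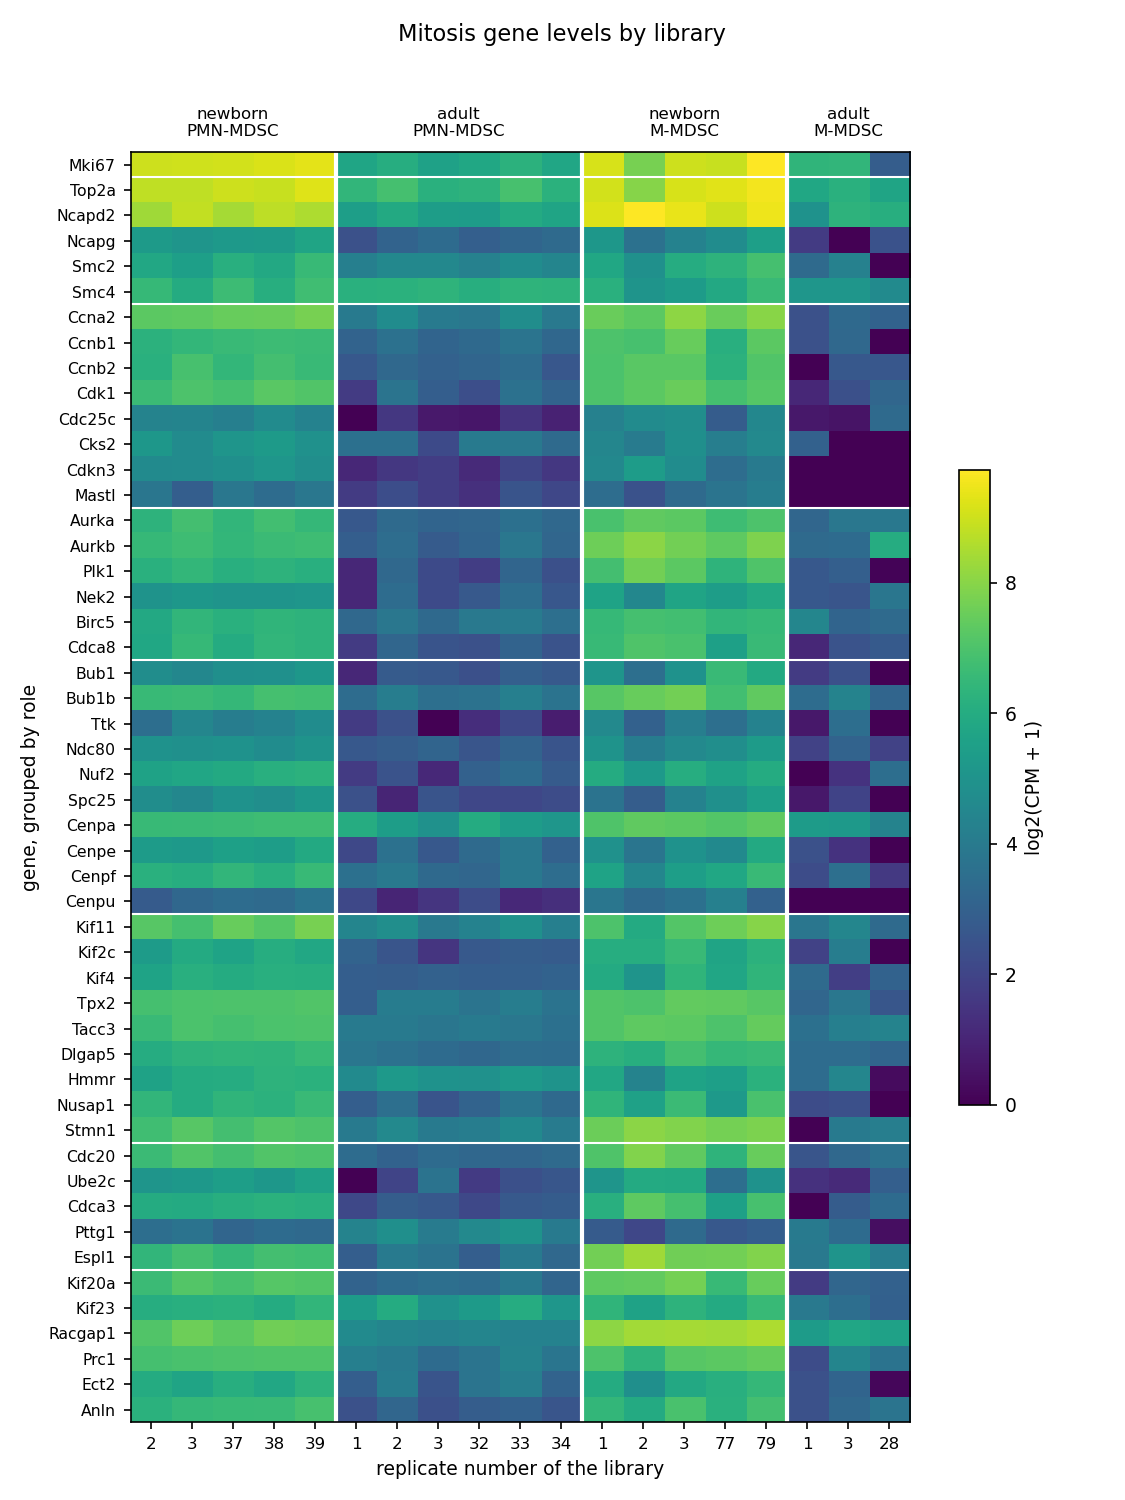
Level of each mitosis gene, as log2(CPM + 1), in each of the 19 libraries, with genes in rows by role and libraries in columns by group and replicate number. Most rows are brighter in the newborn than in the adult columns of the same cell type; Pttg1 is brightest in adult PMN-MDSC, Smc4 overlaps across PMN-MDSC, and Kif23, Hmmr and Cenpa keep means of 44.7, 31.7 and 45.2 CPM in adult PMN-MDSC; adult M-MDSC replicate 28 has 12 genes at 0.

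Mki67 encodes the Ki-67 protein of dividing cells, which coats mitotic chromosomes. Its level was 513, 521, 538, 576 and 651 CPM in newborn PMN-MDSC, against 46.8 to 75.6 CPM (median 53.6) in adult PMN-MDSC. The groups were far apart, with a log2 fold change of 3.27 ± 0.44 (SE; edgeR adjusted p = 6.35e-06). In newborn M-MDSC replicates 1, 2, 3, 77 and 79 its level was 570.2, 210.4, 511, 481 and 841 CPM, against 81.2, 83.8 and 6.28 CPM in adult M-MDSC replicates 1, 3 and 28. The groups did not overlap (3.25 ± 0.60; edgeR adjusted p = 0.000481), although newborn M-MDSC replicate 2 and adult M-MDSC replicate 28 were each well under the rest of their group.

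Of the 5 genes of chromosome structure, 4 were higher in newborn PMN-MDSC and all 5 in newborn M-MDSC. Top2a encodes topoisomerase II alpha, which untangles sister chromatids. It stood at 449, 443, 511, 486 and 618 CPM in newborn PMN-MDSC, against 70.8 to 118 CPM (median 80.8) in adult PMN-MDSC. All newborn libraries were above all adult ones (2.44 ± 0.22; edgeR adjusted p = 3.81e-08). In M-MDSC it stood at 540.0, 251, 563, 632 and 760.0 CPM in newborns, against 55.4, 71.0 and 51.1 CPM in adults. Again there was no overlap (3.18 ± 0.30; edgeR adjusted p = 3.77e-07). The condensin subunits Ncapd2, Ncapg and Smc2 were higher in newborn PMN-MDSC by log2 fold changes of 2.96, 2.32 and 1.58; the call for Smc2 was held in 16 of the 30 alternative analyses and was lost on leaving out any 1 of 11 libraries.

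Smc4, the ATPase partner of Smc2 in condensin, had no call in PMN-MDSC. It was 91.9, 62.7, 101, 68.1 and 106 CPM in newborn PMN-MDSC, against 68.1 to 80.3 CPM (median 76.4) in adult PMN-MDSC. The adult libraries lay inside the newborn range, and the log2 fold change of 0.17 ± 0.22 was not called (edgeR adjusted p = 0.564); its sign turned with other scalings (-0.002 with DESeq2's size factors, -0.07 with upper-quartile scaling and -0.0012 in DESeq2). In M-MDSC Smc4 was 71.5, 32.1, 39.4, 57.1 and 96.5 CPM in newborns, against 34.0, 33.6 and 24.4 CPM in adults. The groups overlapped, and the fold change of 0.94 ± 0.29 was called (edgeR adjusted p = 0.0177) but not without adult M-MDSC replicate 28 (0.69, edgeR adjusted p = 0.110).

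All 8 genes of mitotic entry were higher in newborns in both cell types, with a median log2 fold change of 3.46 in PMN-MDSC and 4.92 in M-MDSC. Cdk1 (chr10:69335146-69352938, minus strand) was 99.6, 130.1, 115, 149 and 137 CPM in newborn PMN-MDSC, against 2.19 to 12.5 CPM (median 7.11) in adult PMN-MDSC. The groups were far apart (4.00 ± 0.34; edgeR adjusted p = 1.64e-08). In M-MDSC it was 129, 155, 183, 115 and 142 CPM in newborns, against 1.10, 4.15 and 8.29 CPM in adults (4.77 ± 0.47; edgeR adjusted p = 6.42e-07). Every newborn library was more than any adult one in both cell types.

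Ccna2, which encodes cyclin A2, was 154, 159.5, 177, 184 and 214 CPM in newborn PMN-MDSC, against 13.5 to 26.2 CPM (median 15.2) in adult PMN-MDSC (3.25 ± 0.22; edgeR adjusted p = 1.20e-09). It was 182, 156, 271, 183 and 256 CPM in newborn M-MDSC, against 4.39, 9.13 and 7.37 CPM in adult M-MDSC (4.88 ± 0.33; edgeR adjusted p = 1.21e-08). The newborn levels of the 2 cell types overlapped, whereas the adult M-MDSC were all under the adult PMN-MDSC. Ccna2 lies on the strand opposite Exosc9, and whether strand entered the counting is not stated. Ncapg, Cdc25c, Cdca8, Cenpu, Kif4, Tacc3, Nusap1, Cdc20, Ube2c, Kif20a and Prc1 also overlap a counted gene on the other strand, and without strand the reads of both cannot be told apart. Ccnb1, which encodes cyclin B1, was 76.1, 86.0, 95.2, 101 and 99.0 CPM in newborn PMN-MDSC, against 7.67 to 12.4 CPM (median 8.71) in adult PMN-MDSC (3.25 ± 0.50; edgeR adjusted p = 2.75e-05). It was 129.5, 119.9, 175, 68.9 and 154 CPM in newborn M-MDSC, against 4.39, 8.72 and 0 CPM in adult M-MDSC (5.45 ± 0.80; edgeR adjusted p = 5.44e-05). The adult library at 0 is replicate 28, and without adult replicate 3 the M-MDSC value was 7.5. Named pseudogene copies of Ccnb1 and Ccnb2 held 9 and 109 counts in all, and reads could be split between a gene and its copy.

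Among the other genes of entry, Ccnb2 averaged 97.1 ± 19.1 CPM in newborn and 7.45 ± 1.84 CPM in adult PMN-MDSC (SD, n = 5 and 6). Cdc25c, the phosphatase that activates Cdk1, averaged 20.2 ± 2.83 CPM in newborn and 0.970 ± 0.769 CPM in adult PMN-MDSC, the steepest of the 50 changes in this cell type at a log2 fold change of 4.21. In M-MDSC its groups overlapped, and its call (2.43 ± 0.76; edgeR adjusted p = 0.0214) was lost without adult replicate 1 (edgeR adjusted p = 0.0817) or replicate 3 (edgeR adjusted p = 0.0809), while the value was 5.43 without replicate 28. Cks2, a small subunit of Cdk1 complexes, had the least change of the 8 in PMN-MDSC (1.54 ± 0.60; edgeR adjusted p = 0.0424), a call lost on leaving out any 1 of 13 libraries. Cdkn3, a phosphatase of cyclin-dependent kinases, averaged 22.6 ± 11.7 CPM in newborn M-MDSC and had no count in any adult M-MDSC library. The same held for Mastl, the Greatwall kinase, at 10.6 ± 4.41 CPM in newborn M-MDSC, and for the centromere protein gene Cenpu at 11.7 ± 4.22 CPM. Set against a floor of 3 counts over the 3 adult libraries, newborn M-MDSC were at least 103-fold higher for Cdkn3, at least 100.4-fold higher for Mastl and at least 87.0-fold higher for Cenpu. Most of the adult depth behind this floor is that of replicate 28; without it the bounds were 20.2-fold, 19.7-fold and 17.1-fold.

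The mitotic kinases and the passenger complex, which corrects faulty chromosome attachments, had all 6 genes higher in newborns in both cell types. Aurka encodes Aurora A, the kinase of the spindle poles. It was 77.7, 114, 84.6, 109.7 and 89.4 CPM in newborn PMN-MDSC, against 5.48 to 11 CPM (median 8.51) in adult PMN-MDSC (3.43 ± 0.19; edgeR adjusted p = 7.38e-11). It was 123, 162, 155, 105 and 129.7 CPM in newborn M-MDSC, against 8.23, 13.7 and 13.8 CPM in adult M-MDSC (3.47 ± 0.24; edgeR adjusted p = 1.99e-08). The groups were apart in both cell types, with nearly the same fold change.

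Aurkb encodes Aurora B, the kinase of the passenger complex. It was 90.3, 104, 85.6, 99.8 and 103 CPM in newborn PMN-MDSC, against 6.00 to 13.4 CPM (median 7.99) in adult PMN-MDSC (3.43 ± 0.37; edgeR adjusted p = 3.44e-07). It was 189.9, 262, 202, 159 and 231 CPM in newborn M-MDSC, against 9.32, 9.55 and 64.7 CPM in adult M-MDSC (2.97 ± 0.46; edgeR adjusted p = 8.73e-05). Adult M-MDSC replicate 28 was well above the other two adult libraries, though still under every newborn one. Plk1, the Polo-like kinase, was higher in newborns by 3.85 ± 0.51 in PMN-MDSC and 5.70 ± 0.79 in M-MDSC on the log2 scale. Nek2, a centrosome kinase, and Birc5 and Cdca8, both of the passenger complex, changed by 2.34, 2.59 and 3.72 in PMN-MDSC and by 2.46, 2.99 and 4.45 in M-MDSC. Without adult M-MDSC replicate 28 the M-MDSC value was 5.10 for Cdca8, and without replicate 3 it was 6.90 for Plk1.

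**Figure D3:**
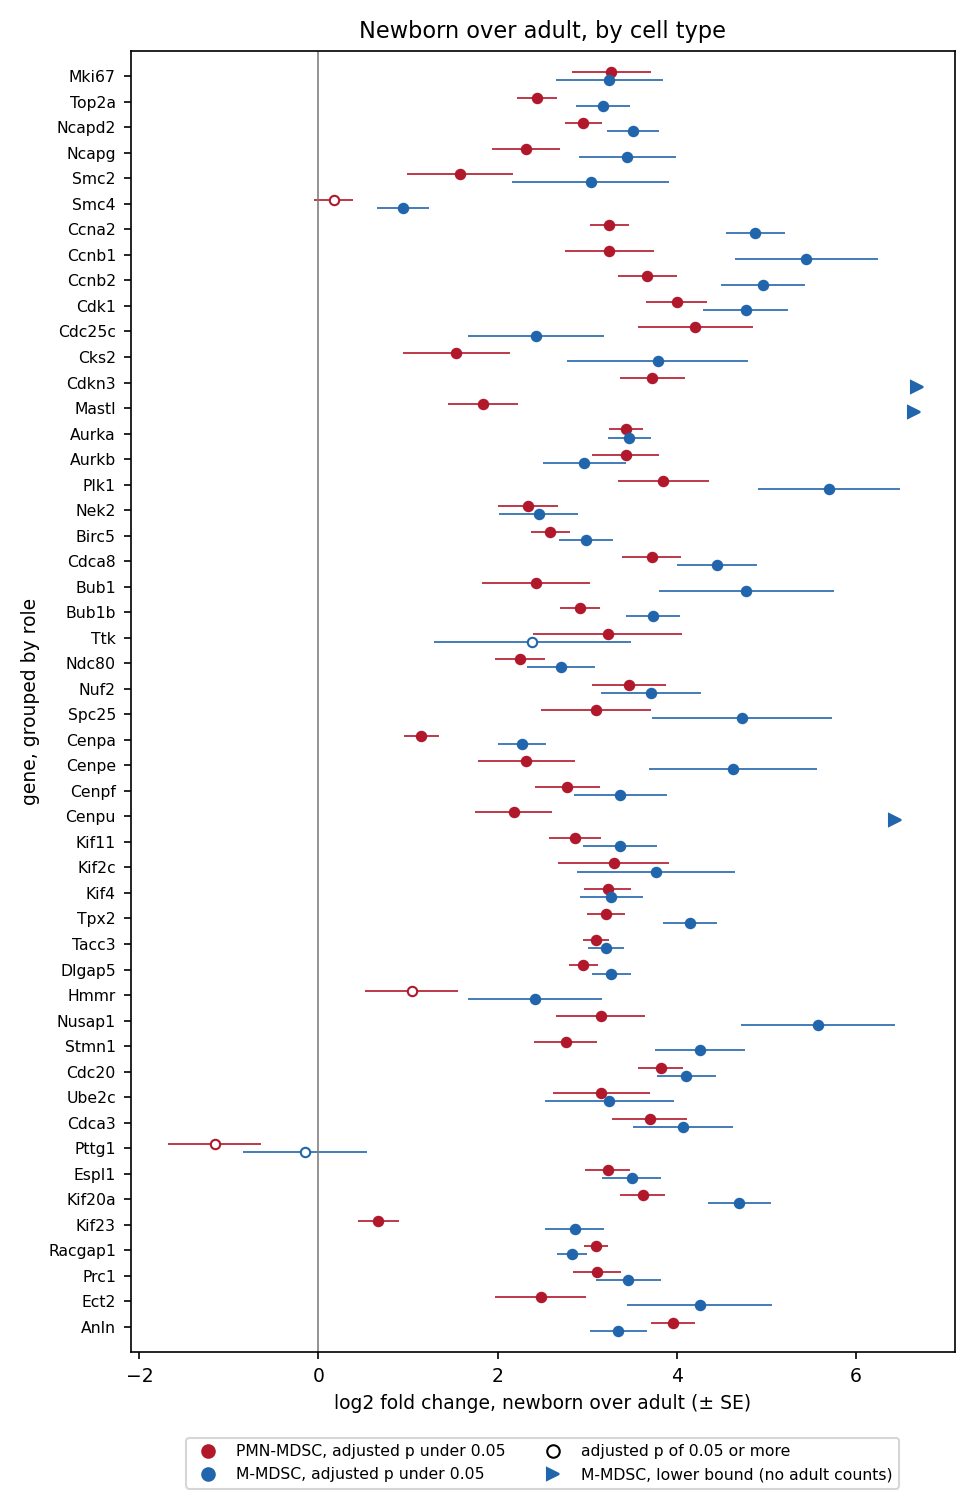
Log2 fold change, newborn over adult, of each of the 50 genes in PMN-MDSC (red) and M-MDSC (blue), with bars for the SE, open circles for genes without a call and triangles for the lower bounds of the 3 genes without counts in adult M-MDSC. Most points lie between 2 and 6; Pttg1 lies at -1.16 in PMN-MDSC and -0.15 in M-MDSC, and Smc4, Hmmr and Kif23 lie nearest to 0 among the rest in PMN-MDSC.

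All 10 genes of the spindle checkpoint, the kinetochore and the centromere were higher in newborn PMN-MDSC, and 9 of the 10 in newborn M-MDSC. Cenpa encodes the histone variant that marks centromeres. It was 92.5, 96.4, 97.9, 105 and 104 CPM in newborn PMN-MDSC, against 29.4 to 63.6 CPM (median 41.3) in adult PMN-MDSC (1.15 ± 0.20; edgeR adjusted p = 0.000105). It was 133, 165, 154, 139 and 163 CPM in newborn M-MDSC, against 40.0, 37.4 and 19.5 CPM in adult M-MDSC (2.27 ± 0.27; edgeR adjusted p = 4.81e-06). No newborn library fell inside an adult range, yet the PMN-MDSC change was the smallest among the called genes of this role.

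The kinetochore genes Ndc80, Nuf2 and Spc25, 3 subunits of 1 microtubule-binding complex, were higher in newborn PMN-MDSC by log2 fold changes of 2.25, 3.47 and 3.10. In M-MDSC they were higher by 2.71, 3.71 and 4.73. The checkpoint genes Bub1 and Bub1b changed by 2.43 and 2.92 in PMN-MDSC and by 4.78 and 3.74 in M-MDSC. Counts in adult M-MDSC were low, and values there moved when 1 library was left out: without adult M-MDSC replicate 28 they were 3.37 for Bub1, 3.18 for Spc25, 5.69 for Nuf2, 3.20 for Cenpe and 2.63 for Cenpf, and without replicate 3 they were 7.16 for Bub1, 8.51 for Spc25, 3.35 for Ndc80 and 4.45 for Cenpf. Without replicate 1 Cenpe was 6.81. Ttk, which encodes the checkpoint kinase Mps1, averaged 18.5 ± 5.61 CPM in newborn and 1.99 ± 1.61 CPM in adult PMN-MDSC (3.23 ± 0.83; edgeR adjusted p = 0.00351). In M-MDSC it averaged 15.4 ± 6.46 CPM in newborns and 3.64 ± 5.84 CPM in adults, the groups overlapped, and there was no call (2.39 ± 1.10; edgeR adjusted p = 0.111); without adult replicate 3 it was called higher (edgeR adjusted p = 0.000786). Cenpe, the kinetochore motor, and Cenpf, a large kinetochore protein, changed by 2.32 and 2.78 in PMN-MDSC and by 4.63 and 3.37 in M-MDSC.

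Of the 9 spindle motor and microtubule genes, 8 were higher in newborn PMN-MDSC and all 9 in newborn M-MDSC. Stmn1 encodes stathmin, which takes microtubules apart. It was 107, 145, 112, 138 and 128 CPM in newborn PMN-MDSC, against 15.0 to 23.7 CPM (median 16.1) in adult PMN-MDSC (2.76 ± 0.35; edgeR adjusted p = 3.26e-06). It was 186, 265, 234, 205 and 224 CPM in newborn M-MDSC, against 0, 15.4 and 16.8 CPM in adult M-MDSC (4.26 ± 0.50; edgeR adjusted p = 4.55e-06). The 0 is of replicate 1, where it allows up to 1.65 CPM, and every newborn library was above every adult one.

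Hmmr was the exception among the spindle genes in PMN-MDSC. It was 47.6, 63.1, 65.1, 77.5 and 73.0 CPM in newborn PMN-MDSC, against 24.1 to 37.3 CPM (median 31.0) in adult PMN-MDSC. The groups did not overlap, but the fold change of 1.04 ± 0.52 was not called (edgeR adjusted p = 0.106). It was called in batch 2 alone (edgeR adjusted p = 0.00423), with the PMN-MDSC groups fitted by themselves (edgeR adjusted p = 1.46e-05) and without adult M-MDSC replicate 28 (edgeR adjusted p = 0.00178). In M-MDSC Hmmr was 55.7, 19.2, 48.6, 43.9 and 74.4 CPM in newborns, against 9.87, 21.2 and 0.230 CPM in adults, with an overlap of 1 library from each group. Its call there (2.42 ± 0.75; edgeR adjusted p = 0.0208) was lost without adult replicate 1 (edgeR adjusted p = 0.0639). Kif11, the motor that pushes spindle poles apart, Tpx2, the activator of Aurora A, and Tacc3, a spindle protein, changed by 2.87, 3.21 and 3.10 in PMN-MDSC and by 3.37, 4.15 and 3.21 in M-MDSC.

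Of the 5 genes of anaphase and mitotic exit, 4 were higher in newborns in each cell type, and Pttg1 was not. Espl1 encodes separase, the protease that cuts the cohesin ring. It was 83.2, 112, 89.5, 112 and 107 CPM in newborn PMN-MDSC, against 6.49 to 15.2 CPM (median 10.3) in adult PMN-MDSC (3.23 ± 0.25; edgeR adjusted p = 6.05e-09). It was 201, 326, 199, 199.9 and 239.7 CPM in newborn M-MDSC, against 14.3, 32.0 and 16.6 CPM in adult M-MDSC (3.50 ± 0.33; edgeR adjusted p = 4.00e-07). The newborn libraries stood clear of the adult ones in both cell types.

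Pttg1 encodes securin, the inhibitor that holds separase inactive until anaphase (chr11:43420250-43426251, minus strand). It was 10.4, 12.1, 8.10, 9.52 and 8.99 CPM in newborn PMN-MDSC, against 14.8 to 30.7 CPM (median 21.4) in adult PMN-MDSC. All newborn libraries lay under all adult ones, opposite to the other 47 genes whose groups were apart. The log2 fold change of -1.16 ± 0.52 was not called (edgeR adjusted p = 0.0739). It was called lower with DESeq2's size factors (edgeR adjusted p = 0.0409), with upper-quartile scaling (edgeR adjusted p = 0.0319), in batch 2 alone (edgeR adjusted p = 0.0164), with the PMN-MDSC groups fitted by themselves (edgeR adjusted p = 0.000173), without adult M-MDSC replicate 28 (edgeR adjusted p = 0.00105) and in DESeq2 (adjusted p = 0.0217). It was not called in batch 1 alone (edgeR adjusted p = 0.147) or without the batch 1 PMN-MDSC libraries (edgeR adjusted p = 0.290). In M-MDSC Pttg1 was 6.04, 3.21, 9.27, 5.39 and 6.56 CPM in newborns, against 15.4, 9.55 and 0.288 CPM in adults. The 2 batch 1 adult libraries were above all newborn ones and replicate 28 was under all of them, and there was no call (-0.15 ± 0.69; edgeR adjusted p = 0.901).

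Cdc20, which directs the anaphase-promoting complex to securin, averaged 122 ± 16 CPM in newborn and 8.80 ± 0.968 CPM in adult PMN-MDSC (SD, n = 5 and 6), and 158 ± 57.6 CPM in newborn and 8.49 ± 3.44 CPM in adult M-MDSC (SD, n = 5 and 3). Ube2c, the ubiquitin-conjugating enzyme of that complex, was higher by a log2 fold change of 3.16 in newborn PMN-MDSC and 3.25 in newborn M-MDSC. Cdca3, which takes part in the destruction of the mitosis inhibitor Wee1, was higher by 3.70 in newborn PMN-MDSC and 4.07 in newborn M-MDSC. Without adult M-MDSC replicate 28 the M-MDSC value was 4.86 for Ube2c and 4.94 for Cdca3.

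All 6 genes of the central spindle and cytokinesis, the final cleavage of the cell, were higher in newborns in both cell types. Racgap1 encodes a subunit of centralspindlin. It was 135, 190.2, 156, 196 and 187 CPM in newborn PMN-MDSC, against 18.7 to 24.1 CPM (median 19.8) in adult PMN-MDSC (3.10 ± 0.13; edgeR adjusted p = 4.48e-12). It was 273, 330.3, 345, 335 and 367 CPM in newborn M-MDSC, against 39.5, 52.7 and 46.9 CPM in adult M-MDSC (2.83 ± 0.17; edgeR adjusted p = 3.80e-09). This was the least variable change of the 50 in both cell types by its SE.

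Kif23 encodes the motor that pairs with Racgap1 in centralspindlin. It was 66.8, 70.0, 73.5, 62.7 and 84.1 CPM in newborn PMN-MDSC, against 29.4 to 64.2 CPM (median 39.2) in adult PMN-MDSC. One adult library reached above the lowest newborn one, and the log2 fold change was 0.67 ± 0.23 (edgeR adjusted p = 0.0220). This call was lost in 12 of 30 alternatives, among them both other scalings, each batch alone and 5 of the analyses that left out 1 library. In M-MDSC Kif23 was 81.3, 48.1, 77.8, 61.6 and 92.6 CPM in newborns, against 14.3, 10.4 and 6.91 CPM in adults. There was no overlap, and the change was 2.86 ± 0.33 (edgeR adjusted p = 3.44e-06). Anln, which encodes the scaffold anillin, Kif20a and Prc1 of the central spindle, and Ect2, the activator of the small GTPase RhoA, changed by 3.96, 3.62, 3.11 and 2.48 in PMN-MDSC and by 3.35, 4.70, 3.46 and 4.26 in M-MDSC. The M-MDSC value of Ect2 was 3.10 without adult replicate 28 and 6.08 without adult replicate 3, and that of Prc1 was 4.07 without replicate 3.

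**Figure D4:**
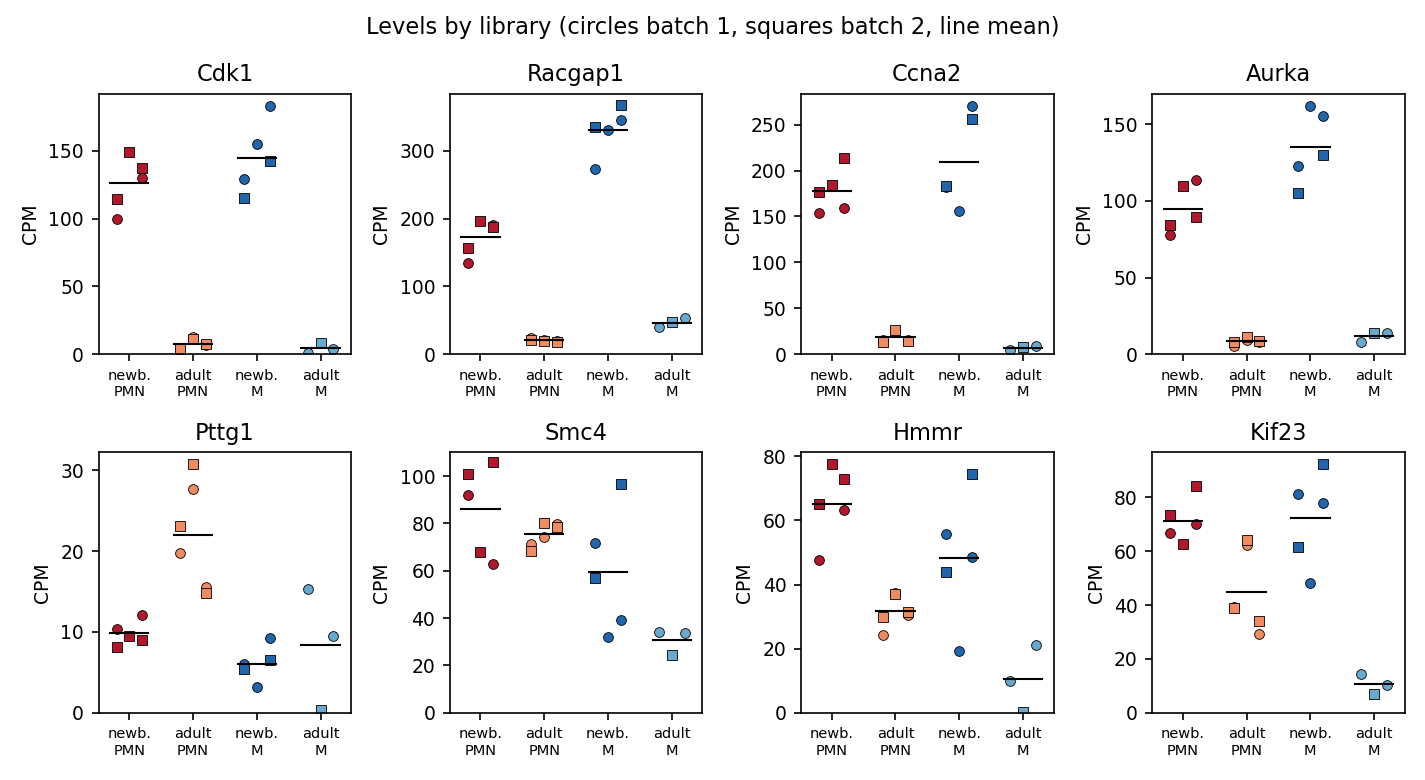
Level (CPM, linear axes from 0) of 8 genes in each library, with circles for batch 1, squares for batch 2 and a line for each group's mean. In the upper row Cdk1, Racgap1, Ccna2 and Aurka are high in both newborn groups. In the lower row Pttg1 is lower in newborn than in adult PMN-MDSC, and Smc4 overlaps there. Hmmr and Kif23 have means of 31.7 and 44.7 CPM in adult PMN-MDSC, and of 10.4 and 10.5 CPM in adult M-MDSC. Kif23 was called lower in adult M-MDSC than in adult PMN-MDSC, and Hmmr was not. For Hmmr, adult M-MDSC replicate 28 is well under the rest of its group.

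The age effect itself was compared between the cell types. The log2 fold change was larger in M-MDSC for 6 of the 50 genes (12%) and smaller for none (edgeR), where 6.61% of all tested genes were larger and 11.5% smaller, 18.1% in either direction. At an unadjusted p under 0.05 there were 16 larger and 0 smaller, and DESeq2 called 11 larger and 0 smaller. The difference of log2 fold changes, M-MDSC minus PMN-MDSC, was 2.19 ± 0.39 for Kif23 (edgeR adjusted p = 0.000635), 1.64 ± 0.36 for Ccna2 (edgeR adjusted p = 0.00348) and 1.12 ± 0.32 for Cenpa (edgeR adjusted p = 0.0205). The other three, Cdkn3, Mastl and Cenpu, had no count in adult M-MDSC, and their fitted differences rest on that. The call of Cenpa was lost on leaving out any 1 of 8 libraries. Kif23 averaged 72.3 CPM in newborn M-MDSC and 71.4 CPM in newborn PMN-MDSC, but 10.5 CPM in adult M-MDSC and 44.7 CPM in adult PMN-MDSC. Ccna2 averaged 209.6 CPM in newborn M-MDSC and 178 CPM in newborn PMN-MDSC, but 6.96 CPM in adult M-MDSC and 18.4 CPM in adult PMN-MDSC. The count moved with the calls over all genes: it was 0 in batch 1 alone, where 1.22% of all genes tested were larger, and 22 in batch 2 alone, where 13.6% were and a single adult M-MDSC library stands. It was 10 without adult M-MDSC replicate 1 and 16 without replicate 3, where 7.41% and 6.59% of all genes were larger. With replicate numbers as a block, a fit that rests on the batch 1 libraries, it was 1, where 1.74% were.

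In newborns, M-MDSC exceeded PMN-MDSC in 7 of the 50 genes (14%) and none was lower, while 18.7% of all tested genes were called higher and 23.4% lower (edgeR). At an unadjusted p under 0.05 there were 9 higher and 1 lower, and DESeq2 called 9 higher and 0 lower. The median log2 fold change was 0.16 over the 50 genes and -0.13 over all genes. The called genes were Aurkb (1.21 ± 0.35; edgeR adjusted p = 0.00912), Espl1 (1.17 ± 0.24; edgeR adjusted p = 0.000793), Racgap1 (0.94 ± 0.13; edgeR adjusted p = 1.18e-05), Ncapd2 (0.80 ± 0.21; edgeR adjusted p = 0.00522), Bub1b, Cenpa and Aurka. Racgap1 averaged 330.0 ± 34.6 CPM in newborn M-MDSC and 173 ± 26.2 CPM in newborn PMN-MDSC (SD, n = 5 each). Espl1 averaged 233 ± 54.7 CPM in newborn M-MDSC and 101 ± 13.3 CPM in newborn PMN-MDSC. The calls of Aurka, Bub1b and Cenpa were lost on leaving out any 1 of 8, 9 and 10 libraries, which lowered the count to 4 without adult PMN-MDSC replicate 1 or 2, newborn PMN-MDSC replicate 2 or 37, or newborn M-MDSC replicate 2 or 3. Without the batch 1 PMN-MDSC libraries it was 2, where 7.74% of all genes tested were higher.

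In adults, M-MDSC were higher than PMN-MDSC in 3 of the 50 genes and lower in 10, where 16.7% of all tested genes were called higher and 12.5% lower (edgeR). The median log2 fold change was -0.54 over the 50 genes, -0.55 with the 3 genes without counts at their bound, and -0.13 over all genes. At an unadjusted p under 0.05 there were 6 higher and 20 lower, and DESeq2 called 3 higher and 19 lower. The higher genes were Racgap1 (1.21 ± 0.15; edgeR adjusted p = 6.04e-06), Espl1 (0.90 ± 0.29; edgeR adjusted p = 0.0258) and Aurkb (1.68 ± 0.40; edgeR adjusted p = 0.00392). Aurkb rested on adult M-MDSC replicate 28, without which its log2 fold change was 0.05 (edgeR adjusted p = 0.945), and Espl1 lost its call without adult M-MDSC replicate 3, adult M-MDSC replicate 28 or adult PMN-MDSC replicate 1 (edgeR adjusted p = 0.225, 0.0521 and 0.0532). The lower genes were Kif23 (-2.18 ± 0.32; edgeR adjusted p = 5.05e-05), Ccna2 (-1.37 ± 0.29; edgeR adjusted p = 0.00167), Smc4 (-1.27 ± 0.28; edgeR adjusted p = 0.00239), Ncapg, Cks2, Cenpe, Nusap1, Cdkn3, Mastl and Cenpu. Cdkn3, Mastl and Cenpu were at least 17.5-fold, 26.9-fold and 12.2-fold lower in adult M-MDSC, against the floor of 3 counts over the group, and at least 3.43-fold, 5.28-fold and 2.40-fold lower without replicate 28. The count of lower genes was 20 without adult M-MDSC replicate 3, 5 without the batch 1 PMN-MDSC libraries and 4 with the adult groups fitted by themselves, where 14.2%, 7.79% and 10.7% of all genes tested were lower. Cks2, Cenpe and Nusap1 lost their call on leaving out any 1 of 12, 7 and 8 libraries, and without adult M-MDSC replicate 28 their edgeR adjusted p was 0.136, 0.154 and 0.208. The 2 comparisons of cell types and the 2 of ages share libraries, so their values stand side by side and are not independent of each other.

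Levels per kilobase were set against all annotated exons of a gene, not the length of the transcripts expressed, so the order is approximate. On this scale the highest levels in newborn PMN-MDSC were those of Stmn1 (65.6 CPM per kb), Cdc20 (65.5), Ccnb2 (63.4) and Ncapd2 (61.7). In newborn M-MDSC the same 4 genes led, with 116 CPM per kb for Stmn1, 107 for Ncapd2, 84.5 for Cdc20 and 84.0 for Ccnb2. The order in adult PMN-MDSC was different, with Cks2 (15.6 CPM per kb), Smc4 (14.5), Pttg1 (11) and Top2a (10.0) at the top. Pttg1 stood at rank 45 of the 50 in newborn PMN-MDSC and at rank 3 in adult PMN-MDSC. In adult M-MDSC the first genes were Aurkb (9.45 CPM per kb), whose mean is carried by replicate 28, Ncapd2 (9.29), Top2a (6.56) and Racgap1 (6.55). Spearman's rho of the 50 levels was 0.960 between newborn M-MDSC and newborn PMN-MDSC, 0.832 between adult M-MDSC and adult PMN-MDSC, 0.720 between newborn and adult PMN-MDSC and 0.742 between newborn and adult M-MDSC. These are descriptions across genes, which share libraries and are not replicates, and neighbours in these orders were not tested against each other.

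A further 114 mitosis genes from 5 lists by function, also chosen with earlier results of these data known, were read beside the 50. Of the 111 that could be tested, 77 were higher in newborn PMN-MDSC and none lower, with a median log2 fold change of 1.33 (27.1% of all tested genes were called higher; edgeR; 80 and 0 at an unadjusted p under 0.05, 76 and 1 in DESeq2). In M-MDSC 84 were higher in newborns and none lower, with a median of 2.10 (15.9% of all tested genes were called higher; edgeR; 90 and 0 at an unadjusted p under 0.05, 87 and 0 in DESeq2). The spindle and cytokinesis list had 19 of 25 tested genes higher in newborn PMN-MDSC and 21 of 25 in newborn M-MDSC. Citron kinase (Cit), which acts at the midbody, was higher by log2 fold changes of 3.63 in PMN-MDSC and 4.35 in M-MDSC. The scaffold gene Iqgap3 was higher by 4.41 in PMN-MDSC and 4.94 in M-MDSC, and the chromosome motor gene Kif22 by 3.68 in PMN-MDSC and 4.30 in M-MDSC. Among other regulators of mitosis, 19 of 25 were higher in newborn PMN-MDSC and 22 of 25 in newborn M-MDSC. Cdc25a, a phosphatase that activates cyclin-dependent kinases, was higher by 3.12 in PMN-MDSC and 2.32 in M-MDSC. Incenp of the passenger complex and Fzr1, another activator of the anaphase-promoting complex, were higher by 2.84 and 1.85 in PMN-MDSC and by 2.87 and 1.74 in M-MDSC.

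Of the other kinetochore and centromere genes, 23 of 33 were higher in newborn PMN-MDSC and 27 of 33 in newborn M-MDSC. Hjurp, which loads the Cenpa protein onto centromeres, was higher by log2 fold changes of 2.41 in PMN-MDSC and 2.04 in M-MDSC. Bub3 and Mad1l1, both of the spindle checkpoint, had log2 fold changes of 1.92 and 1.33 in PMN-MDSC and of 1.39 and 0.85 in M-MDSC. Of the cohesin and condensin genes, 8 of 14 were higher in each cell type, among them Cdca5, which encodes the cohesin protector sororin, and the condensin genes Ncaph and Ncapd3. Their log2 fold changes were 2.84, 3.07 and 2.32 in PMN-MDSC and 3.92, 4.00 and 2.27 in M-MDSC. The subunits of the anaphase-promoting complex had the smallest changes: 8 of 14 were higher in newborn PMN-MDSC with a median of 0.42, and 6 of 14 in newborn M-MDSC with a median of 0.74. Its genes of smallest adjusted p in PMN-MDSC were Anapc5, Anapc2 and Anapc7, with log2 fold changes of 1.06, 1.15 and 0.63 in PMN-MDSC and of 1.23, 0.73 and 0.82 in M-MDSC.

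Markers of several other cell types moved with age in the same libraries. As a measure for the calls below, 27.1% of all tested genes were higher and 20.5% lower in newborn PMN-MDSC. In newborn M-MDSC 15.9% were higher and 14.3% lower. Erythroid markers (19 genes) summed to 3277 to 5739 CPM in newborn PMN-MDSC and to 218 to 527 CPM in adult PMN-MDSC, and 16 of the 19 were called higher in newborns. In M-MDSC they summed to 41.4 to 2950.3 CPM in newborns and to 79.5 to 549 CPM in adults, and none of the 19 was called (edgeR; 4 higher and 0 lower at an unadjusted p under 0.05). Only Klf1 was at 0 in a whole group, the adult M-MDSC. In newborn M-MDSC replicates 1, 2, 3, 77 and 79 the erythroid sums were 1699.9, 2950.3, 1134.1, 41.4 and 129 CPM. The summed mitosis genes were 5857, 5761, 6781, 5431 and 7614 CPM in the same libraries. Granulocyte progenitor markers (12 genes, several of which immature neutrophils also carry) summed to 57661 to 62595 CPM in newborn PMN-MDSC and to 1621 to 2412 CPM in adult PMN-MDSC. They summed to 5169.8 to 15226 CPM in newborn M-MDSC and to 1139 to 1743 CPM in adult M-MDSC. In each cell type 11 of the 12 were called higher in newborns and none was at 0 in a whole group. Stem and progenitor markers (12 genes, 8 of them tested) summed to 283 to 360.0 CPM in newborn and 98.7 to 147 CPM in adult PMN-MDSC, and to 135 to 204 CPM in newborn and 73.5 to 126 CPM in adult M-MDSC. Of the 8, 3 were called higher and 1 lower in newborn PMN-MDSC, and 4 higher and 2 lower in newborn M-MDSC. With 8 genes, the PMN-MDSC counts are near the shares of all tested genes. Eosinophil and basophil markers (10 genes) summed to 284 to 736 CPM in newborn and 50.8 to 110 CPM in adult PMN-MDSC, and to 44.4 to 194 CPM in newborn and 2.19 to 17.0 CPM in adult M-MDSC, where 7 of the 10 were at 0. Markers of lymphoid and dendritic cells went the other way. B cell markers (13 genes, 12 called lower in newborns in each cell type) summed to 681 to 1031 CPM in newborn and 4546 to 7175 CPM in adult PMN-MDSC, and to 179 to 323 CPM in newborn and 1089.7 to 2652 CPM in adult M-MDSC. T cell markers (15 genes) averaged a sum of 72.8 CPM in newborn and 162 CPM in adult PMN-MDSC, with 4 called lower. The sum averaged 30.5 CPM in newborn and 329 CPM in adult M-MDSC, with 15 called lower. The 4 in PMN-MDSC are near the share of all tested genes called lower there. Of the tested markers, 6 of 7 for plasma cells and 5 of 12 for dendritic cells were called lower in newborns in each cell type, and 3 of 6 for NK cells in PMN-MDSC and 5 of 6 in M-MDSC. Red pulp macrophage markers (11 genes) summed to 2445 to 2997 CPM in newborn and 2248 to 4675 CPM in adult PMN-MDSC, with 3 called lower. In M-MDSC they summed to 534 to 605 CPM in newborns and 804 to 1020 CPM in adults, with 6 called lower. The sums of megakaryocyte and platelet markers overlapped between the ages in each cell type. The part of all these other cells in the levels of the mitosis genes was not tested.

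**Figure D5:**
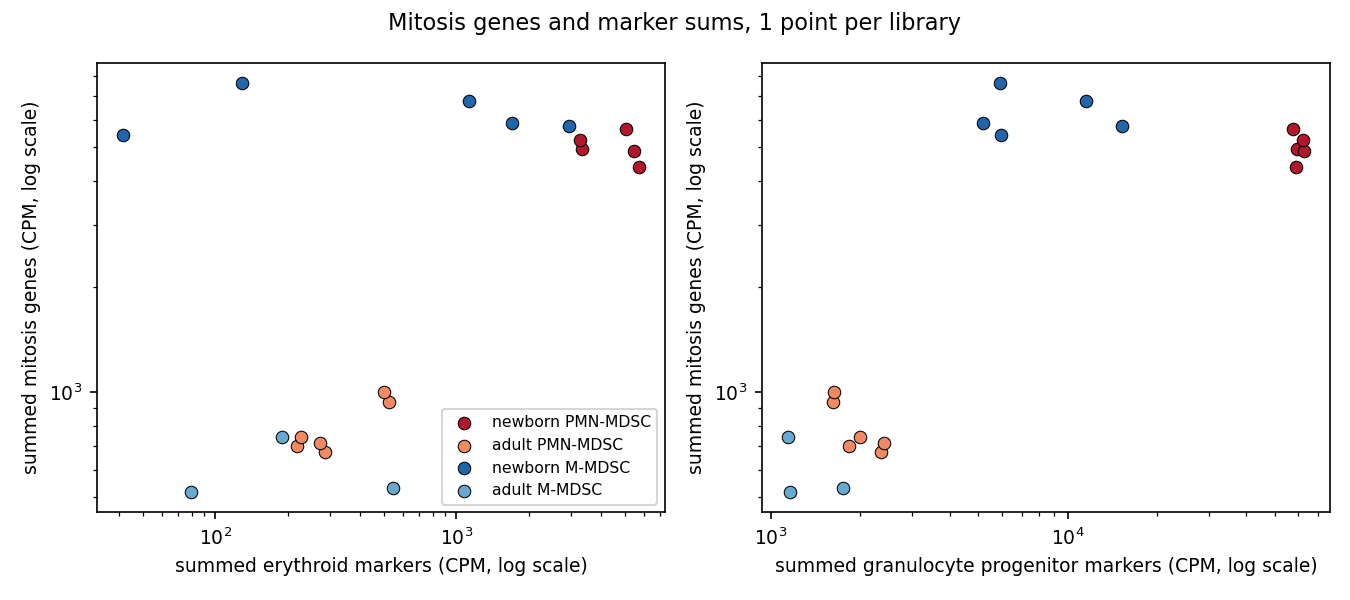
Summed level of the 50 mitosis genes (vertical, CPM, log axis) against the summed level of erythroid markers (left) and of granulocyte progenitor markers (right, both CPM on log axes), 1 point per library. Newborn M-MDSC lie between 5431 and 7614 CPM of mitosis genes and between 41.4 and 2950.3 CPM of erythroid markers. The granulocyte progenitor sum is higher in every newborn than in every adult library of the same cell type. So are the sums, not plotted, of defining neutrophil, stem and progenitor, and eosinophil and basophil markers. The erythroid sum is so in PMN-MDSC only.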

How the data were processed

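RNA of 19 spleen libraries was sequenced as single-end reads of 50 bases, per the labels' protocols. The authors deposited estimated counts per gene. RSEM 1.2.3, the build mm10 and DESeq2 are named, without a role, in the submitters' processing notes, while the sources used here name no aligner and no strand setting. Rounding to whole numbers changed 0 of the deposited estimated counts. Precision is limited by depth in batch 1.

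The counts were tested with edgeR 4.0.16 (limma 3.58.1, R 4.3.3): TMM scaling, edgeR's expression filter by group, a model with group and batch (14 residual degrees of freedom), the quasi-likelihood test and Benjamini-Hochberg adjustment over 12943 genes, at a threshold of 0.05. The same steps were run on simulated counts with a single spread for all genes, no batch effect and changes in few genes, in newborn PMN-MDSC only. That setting is simpler than these data and does not probe the shift of medians with scaling. Alternatives were other scalings, one of them without haemoglobin, immunoglobulin and mitochondrial genes, no filter, each batch alone, only the groups compared, a replicate block, leaving out libraries, and DESeq2 1.42.0. Libraries were grouped by their labels. Same-numbered libraries had correlations of gene deviations of -0.0874 to 0.267, and the numbers were not taken as pairs. The highest, 0.267 for replicate 1 and 0.266 for replicate 3, were of adult PMN-MDSC with adult M-MDSC. All others were at most 0.114. Whether those adult libraries share animals is not stated, and the comparison of adult cell types ignores any such pairing. Members and lists were chosen with earlier results of these data known. All 50 genes could be named; levels by library were given for the gene of highest mean in each role and for Mki67, Top2a, Aurka, Ccnb1 and Cdk1, with Pttg1, Smc4, Hmmr and Kif23 added after their values were seen, and at most 3 genes of smallest adjusted p from each other list. Promoter windows came from RefSeq (GRCm38.p6), and gene positions and exon lengths from GENCODE M21. The plot of levels by gene and library used log2(CPM + 1).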

Additional observations from a re-analysis of the deposited data

Results flagged for a closer look

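For 6 of the 50 mitosis genes the change between newborns and adults differed between M-MDSC and PMN-MDSC in the test of that difference (edgeR's quasi-likelihood test, Benjamini-Hochberg adjusted p under 0.05). That is 12% of the 50, against 18.1% of all tested genes called in either direction. The difference of log2 fold changes, M-MDSC minus PMN-MDSC, was 1.64 for Ccna2, 1.12 for Cenpa and 2.19 for Kif23. The fitted differences were 7.25 for Cdkn3, 8.37 for Mastl and 8.14 for Cenpu. These 3 genes had 0 counts in all adult M-MDSC libraries, so their fitted values depend on how a count of 0 is handled and are no bound. No library met the rule for a single distant value in any of the 168 sets of 4 or more libraries tested. The rule seeks 1 value apart from the rest, so it misses 2 libraries that lie apart together. Adult PMN-MDSC replicates 2 and 33 had summed mitosis levels of 935 and 997 CPM, against 672 to 743 CPM in the rest of the group. Newborn M-MDSC replicate 2, well under the rest of its group for Mki67, did not meet the rule either. Adult M-MDSC, with 3 libraries, was too small for this rule, so its replicate 28 was not tested.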

How the results depend on the processing

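Across 30 alternatives, 40 of the 47 genes called higher in newborn PMN-MDSC and 38 of the 48 in newborn M-MDSC were called in every one, and the direction of all 47 and all 48 held in each. Leaving out 1 library gave 44 to 48 higher genes in PMN-MDSC and 46 to 48 in M-MDSC, and 71 to 88 and 75 to 89 of the other mitosis genes. In PMN-MDSC, 1 gene was lower with DESeq2's size factors, upper-quartile scaling, batch 2 alone, only the groups compared, DESeq2, and without adult M-MDSC replicate 28 (0 to 1 without 1 library). Among the other mitosis genes in PMN-MDSC, 1 was lower with DESeq2's size factors, upper-quartile scaling and DESeq2, 2 with only the groups compared, and 0 to 1 without 1 library. In M-MDSC, 51 of them were higher with only the groups compared, where 665 of all 10814 genes tested were higher. Genes with a larger age effect in M-MDSC numbered 10 with upper-quartile scaling, 0 in batch 1 alone, 22 in batch 2 alone, 11 in DESeq2 and 5 to 16 without 1 library (over all genes tested, 8.94%, 1.22%, 13.6% and 11.1% under the first 4), and 2 were smaller in batch 2 alone. Genes higher in newborn M-MDSC than in newborn PMN-MDSC numbered 4 with no filter, 4 in batch 1 alone, 12 with only the groups compared, 2 without the batch 1 PMN-MDSC libraries and 4 to 10 without 1 library, where 8.73%, 11.7%, 22.9% and 7.74% of all genes tested were higher under the first 4. There, 1 was lower in batch 2 alone and 0 to 1 without 1 library. Genes higher in adult M-MDSC than in adult PMN-MDSC numbered 1 in batch 1 alone, where 779 of all 11979 genes tested were higher, and 1 to 5 without 1 library. Lower ones numbered 6 in batch 1 alone, 24 in batch 2 alone, 4 with only the groups compared, 5 without the batch 1 PMN-MDSC libraries, 19 in DESeq2 and 7 to 20 without 1 library, where 4.92%, 24%, 10.7%, 7.79% and 19.9% of all genes tested were lower under the first 5. The sign turned for Smc4 in PMN-MDSC with DESeq2's size factors (-0.002), upper-quartile scaling (-0.07) and DESeq2 (-0.0012). It turned for Pttg1 in M-MDSC in batch 2 alone (4.41), with only the groups compared (0.06), without the batch 1 PMN-MDSC libraries (0.11), and without adult M-MDSC replicate 1 (0.63) or 3 (0.04), and ran between -0.97 and 0.63 over the analyses without 1 library. The bounds for Cdkn3, Mastl and Cenpu without adult M-MDSC replicate 28 were computed after seeing the data. The cause was not tested.

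With replicate numbers as a block, 44 genes were higher and 0 lower in newborn PMN-MDSC, and 47 and 0 in newborn M-MDSC. The block left 1 gene with a larger age effect in M-MDSC, 8 higher in newborn M-MDSC than in newborn PMN-MDSC, and 1 higher and 7 lower in adult M-MDSC than in adult PMN-MDSC. It left 55 and 75 of the other mitosis genes higher in newborn PMN-MDSC and newborn M-MDSC. Over all 12943 genes tested, the block called 2203 higher and 1482 lower in newborn PMN-MDSC, and 1489 and 1552 in newborn M-MDSC. The age effect was larger in M-MDSC for 225 and smaller for 405. In M-MDSC against PMN-MDSC, 1499 were higher and 2114 lower in newborns, and 853 and 735 in adults. The replicate numbers are not shown to pair the libraries. Every batch 2 library has a number that no other library has, so its own term absorbs it in this fit. The block results therefore rest on the batch 1 libraries and are close in kind to batch 1 alone. Batch 2 alone holds 1 adult M-MDSC library, assumed to vary like the other groups, and batch 1 libraries are shallow, so genes of a few CPM rest on few counts there.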
